A study of Homo sapiens with 33 samples.

Results

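The genes described here are 46 genes of cell proliferation and mitosis, chosen by symbol from a table of 29744 genes measured in 33 libraries. They were grouped by role into 2 chromosome and proliferation markers, 6 genes of the cyclins and CDK1, 6 of mitotic entry and exit, 5 of the spindle checkpoint, 8 of the spindle and centromere, 10 of origin licensing, 3 of deoxynucleotide supply and 6 transcription factors. The choice used the symbols only and no measured value, although results of these data were known when it was made. All 46 genes were found in both deposited tables, none had fewer than 65 counts in any library, and every one of them entered each test.

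The libraries came from 11 established high-grade serous ovarian carcinoma lines with 3 replicates each. The study compared platinum-resistant lines with a sensitive line of the same origin. OVCAR3 and OVCAR4 were the sensitive parents of OVCAR3 ResA, OVCAR3 ResB, OVCAR4 ResA and OVCAR4 ResB, which were each selected by repeated short cisplatin pulses at rising dose and then grown without the drug. PEA1 and PEO1 were the sensitive lines set against PEA2, PEO4 and PEO6, and lines that share the letters PEA or PEO share 1 patient of origin and were not selected in culture. None of the labels names a treatment at harvest. The study's methods name the same medium for all PEA and PEO lines and different media for OVCAR3 and OVCAR4. A comparison between families thus also compares media, except between PEA and PEO. A line is 1 cell population, so a difference between a resistant line and its partner is a difference between those populations and not between resistance and sensitivity in general. The sensitive or resistant role of a line was taken from the study's text because the labels give the line alone.

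Cells that divide copy their DNA in S phase and separate the copies in mitosis, and the genes for both steps are switched on in waves. E2F factors drive genes needed for replication, among them the MCM subunits that form the helicase loaded at origins and the enzymes that supply deoxynucleotides. The MYBL2 (B-MYB) and FOXM1 factors, acting with the MuvB complex at CHR promoter elements, drive the later wave that includes CCNB1, PLK1, the kinesins and the spindle checkpoint. Transcript levels of these genes are widely used to gauge how many cells of a population are cycling. In bulk RNA, fewer cycling cells and less RNA per cycling cell cannot be told apart.

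Library totals ran from 18058985 to 43394009 expected counts, with a median of 30611448, and the 46 genes took 0.234% to 0.854% of them. No library was a copy of another, since the lowest chi-square between any 2 of the 33 libraries was 30.6 for each degree of freedom over genes. Of 9 markers of epithelium and serous carcinoma, KRT8, KRT18 and PAX8 had line means of at least 128, 206 and 30.1 TPM in every line. PEA1 was nearly without the others, with EPCAM at 14, KRT7 at 2.95, CDH1 at 1.26, KRT19 at 0.459 and MUC16 at 0.0696 TPM, and WT1, a serous marker, was at 0.645 to 4.40 TPM in the 2 OVCAR3 derivatives, all OVCAR4 lines and both PEA lines. The T cell marker CD3E reached a line mean of at most 0.0186 TPM, and the 4 leukocyte markers summed to 1.44 to 54.8 TPM per library, most of it CD68. The 6 fibroblast markers summed to 0.675 to 116 TPM and the 3 endothelial markers to 0.0132 to 14.4 TPM. Libraries differed in their share of mitochondrial ribosomal RNA (RNR1 and RNR2), from 1.12% to 14.8% of counts.

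Between replicates of the same line, that share moved with the 46 genes in most lines but not all. The library with the highest share of a line had the lower summed TPM in 9 of 11 lines and the higher in PEA2 (1.50 times that of the library with the lowest share) and PEO1 (1.18 times). In 8 of the 11 lines the highest share was at least 2 times the lowest, and in all 8 the library with the higher share had the lower summed TPM of the 46 genes, at 0.556 to 0.887 of the level in the other library. TPM, transcript abundance per length, is scaled to a fixed sum in every library, and with RNR1 and RNR2 taken out of that sum the ratios were 0.631 to 0.916. The largest contrast in share was in OVCAR3 ResB, where replicate 3 had 1.12% mitochondrial rRNA and a summed TPM of 4336. Replicates 1 and 2 of that line had 5.97% and 8.88%, and summed to 2521 and 2531 TPM. In OVCAR4 the order was the same, with sums of 4622, 2571 and 3162 TPM in replicates 1, 2 and 3 at shares of 5.18%, 14.8% and 12.0%. Its resistant derivatives had the highest share in replicate 1 (9.23% in OVCAR4 ResA and 13.1% in OVCAR4 ResB) and 2.02% to 2.47% in the others. Replicate 1 was thus the low-share library of the parent and the high-share library of both derivatives.

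**Figure D1:**
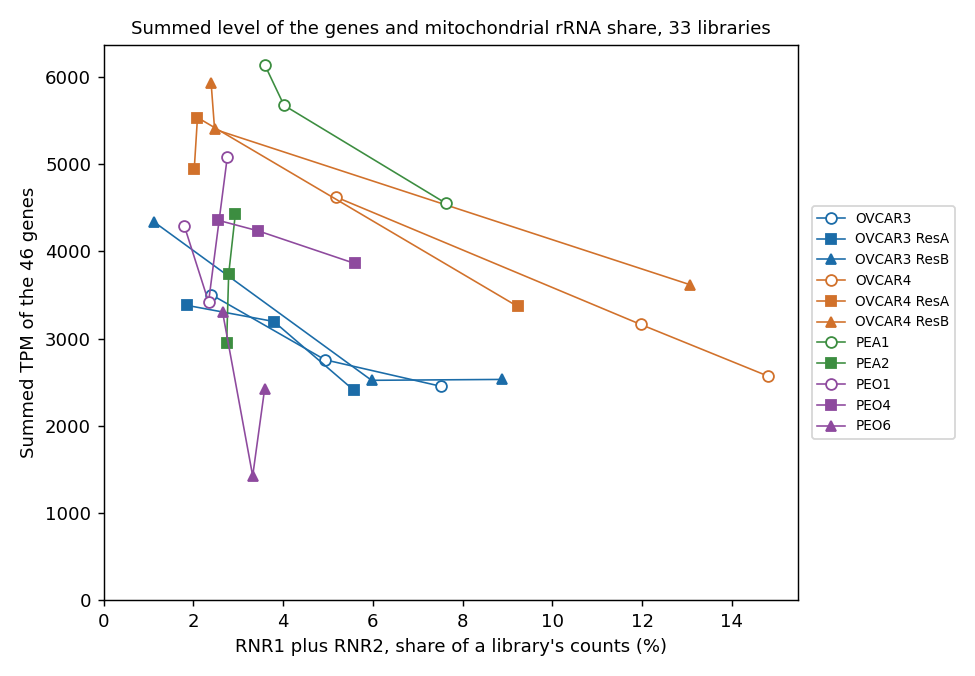
Each point is 1 of 33 libraries, with the share of its counts from RNR1 and RNR2 on the x axis (%) and the summed TPM of the 46 genes on the y axis, and a line joins the 3 libraries of a cell line (open, sensitive; filled, resistant). Within 8 lines the sum is lower at the higher share, and the 3 PEO6 libraries sit between 1425 and 3300 TPM, below all libraries of PEO1 and PEO4.

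The genes did not follow the share as 1 block. On normalised counts, 18 of the 46 were lower in the high-share library in all 8 of those lines, and 4 were higher in all 8. PLK1, the polo-like kinase of mitotic entry, had a median log2 difference of -1.29 over the 8 lines. MCM2 and MCM6, subunits of the replicative helicase, had medians of -1.03 and -1.01, and RRM1, the large subunit of ribonucleotide reductase, -1.09. The opposite held for UBE2C, the ubiquitin-conjugating enzyme of the anaphase-promoting complex, whose median was 1.12 with a lowest value of 0.766. AURKB, TOP2A and KIF20A were the other 3 genes higher in all 8 lines, with medians of 0.525, 0.483 and 0.363. CDK1 split 4 to 4 with a median of 0.0538. Genes of both directions occurred at short, middle and long effective length, by their medians over all lines. Among 9 short genes (below 0.75 of the median gene) 2 were higher and 7 lower. Among 28 middle ones the counts were 4 and 24, and among 9 long ones (above 1.5) 3 and 6. The shortest of the 46 genes, UBE2C, was higher. Of the 2 longest, MKI67 had a median of -0.670 over the 8 lines and CENPF one of 0.195. A link between length and direction was not tested. What the share stands for was not tested, and its values are given beside the results it moves with.

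**Figure D2:**
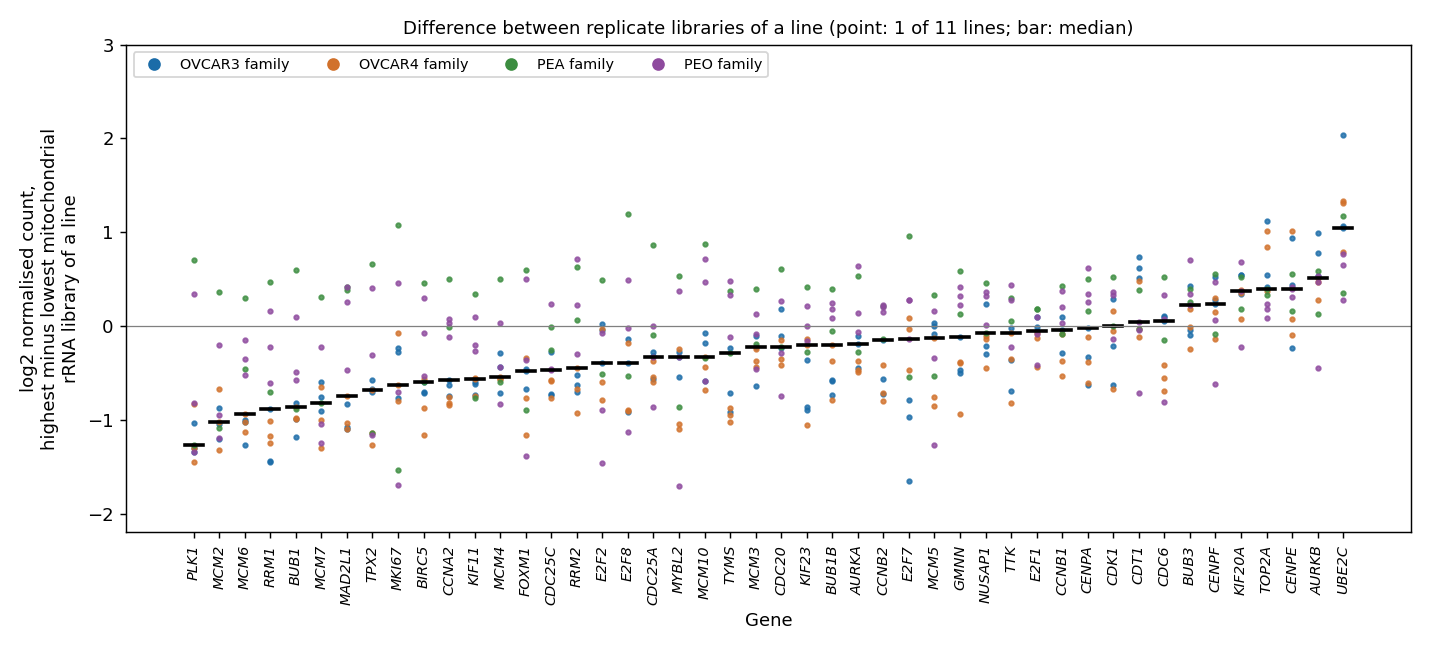
For each of the 46 genes (x axis) the points give the log2 difference in normalised count between the library with the highest and the library with the lowest mitochondrial rRNA share of a line (y axis), 1 point for each of 11 lines coloured by family, and the bar is the median. PLK1, MCM2 and MCM6 lie lowest and UBE2C highest, with all 11 of its points above 0.

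Summed over the 46 genes, the level was lowest in PEO6 at 2382 ± 938 TPM (SD, n = 3) and highest in PEA1 at 5453 ± 813. OVCAR3, OVCAR3 ResA and OVCAR3 ResB followed PEO6 at 2904 ± 541, 2995 ± 515 and 3130 ± 1045. OVCAR4 had 3452 ± 1056 and PEA2 3704 ± 742. PEO4, PEO1, OVCAR4 ResA and OVCAR4 ResB had 4150 ± 257, 4261 ± 829, 4615 ± 1120 and 4981 ± 1212. The libraries of each line overlapped those of its neighbours in this order. Within families, the 3 PEO6 sums (2422, 1425 and 3300) lay below every PEO1 and PEO4 library, and the 3 PEA2 sums (4428, 3739 and 2946) below every PEA1 library (5674, 4553 and 6134). PEO6 had the lowest line mean for 17 of the 46 genes and PEA1 the highest for 17.

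By mean TPM over the 11 lines, UBE2C (304), CDK1 (234) and TOP2A (179) stood highest and the E2F factors E2F7 (4.97) and E2F2 (4.22) lowest. The spread over lines was widest for MYBL2, from 21.9 TPM in PEO6 to 199 in OVCAR4 ResB, and narrowest for CCNB1 (cyclin B1), from 141 in OVCAR3 ResB to 260 in PEO1. MKI67 (chr10:128096659-128126423), which codes for the Ki-67 antigen, ran from 15.3 to 85.6 TPM in the same lines as MYBL2. Over the 11 line means of log2(TPM + 1), the genes most like MKI67 were BUB3 (Pearson r 0.910), CENPE (0.886) and CDC25A (0.860). CCNB1, CCNB2 and NUSAP1 had r of -0.274, -0.129 and -0.0519 with MKI67. These are descriptions over 11 points that share families.

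**Figure D3:**
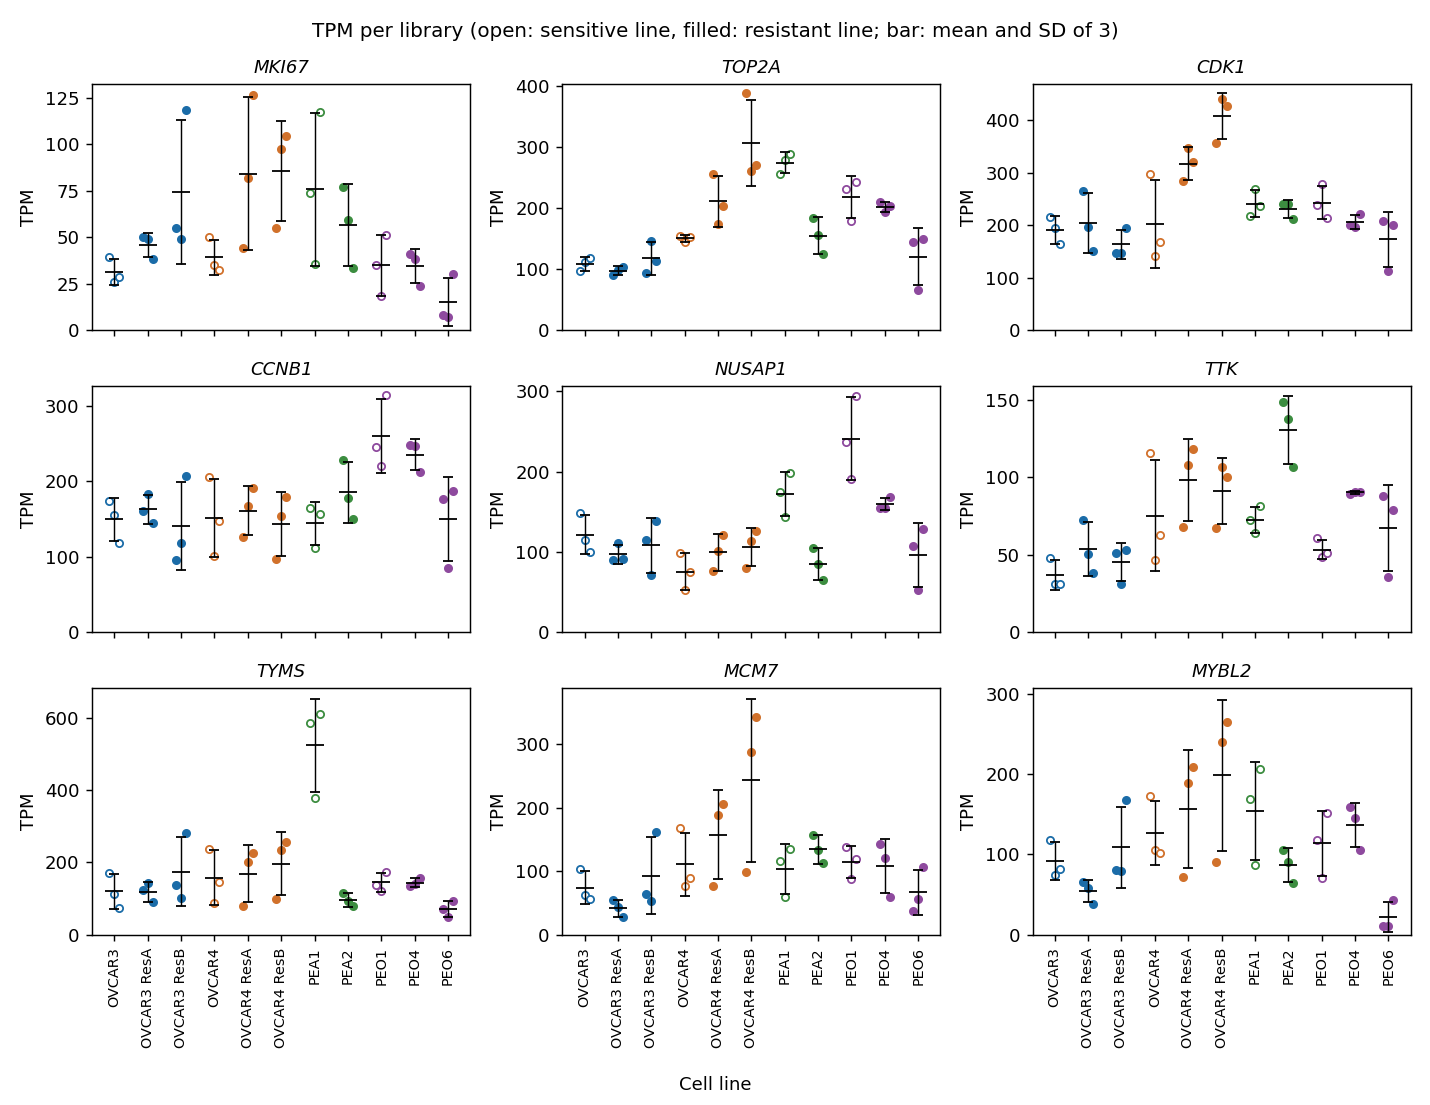
TPM (y axis) of 9 of the genes in each library of the 11 lines (x axis), open for sensitive and filled for resistant lines and coloured by family, with the mean and SD of 3 libraries. MYBL2 is at 10.9 to 43.5 TPM in PEO6 against 70.7 to 152 in PEO1, and TYMS at 78.4 to 116 in PEA2 against 376 to 609 in PEA1.

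Each resistant line was then set against its sensitive partner with DESeq2 on the counts of the whole table, with the replicate number as a block, and a gene was called at a Benjamini-Hochberg adjusted p below 0.05 over all genes tested. Of 322 combinations of gene and pair, 99 were called, 25 higher and 74 lower in the resistant line. Of the 46 genes, 41 were called in at least 1 pair, beside 86.6% of the 13924 genes tested in all 7, so this count says little about the 46. Pairs of 1 family share their sensitive libraries, so OVCAR3 ResA with OVCAR3 ResB, OVCAR4 ResA with OVCAR4 ResB, and PEO4 with PEO6 are not independent of each other. The replicates are named only by number, so p-values measure the spread between these libraries, which may be technical.

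**Figure D4:**
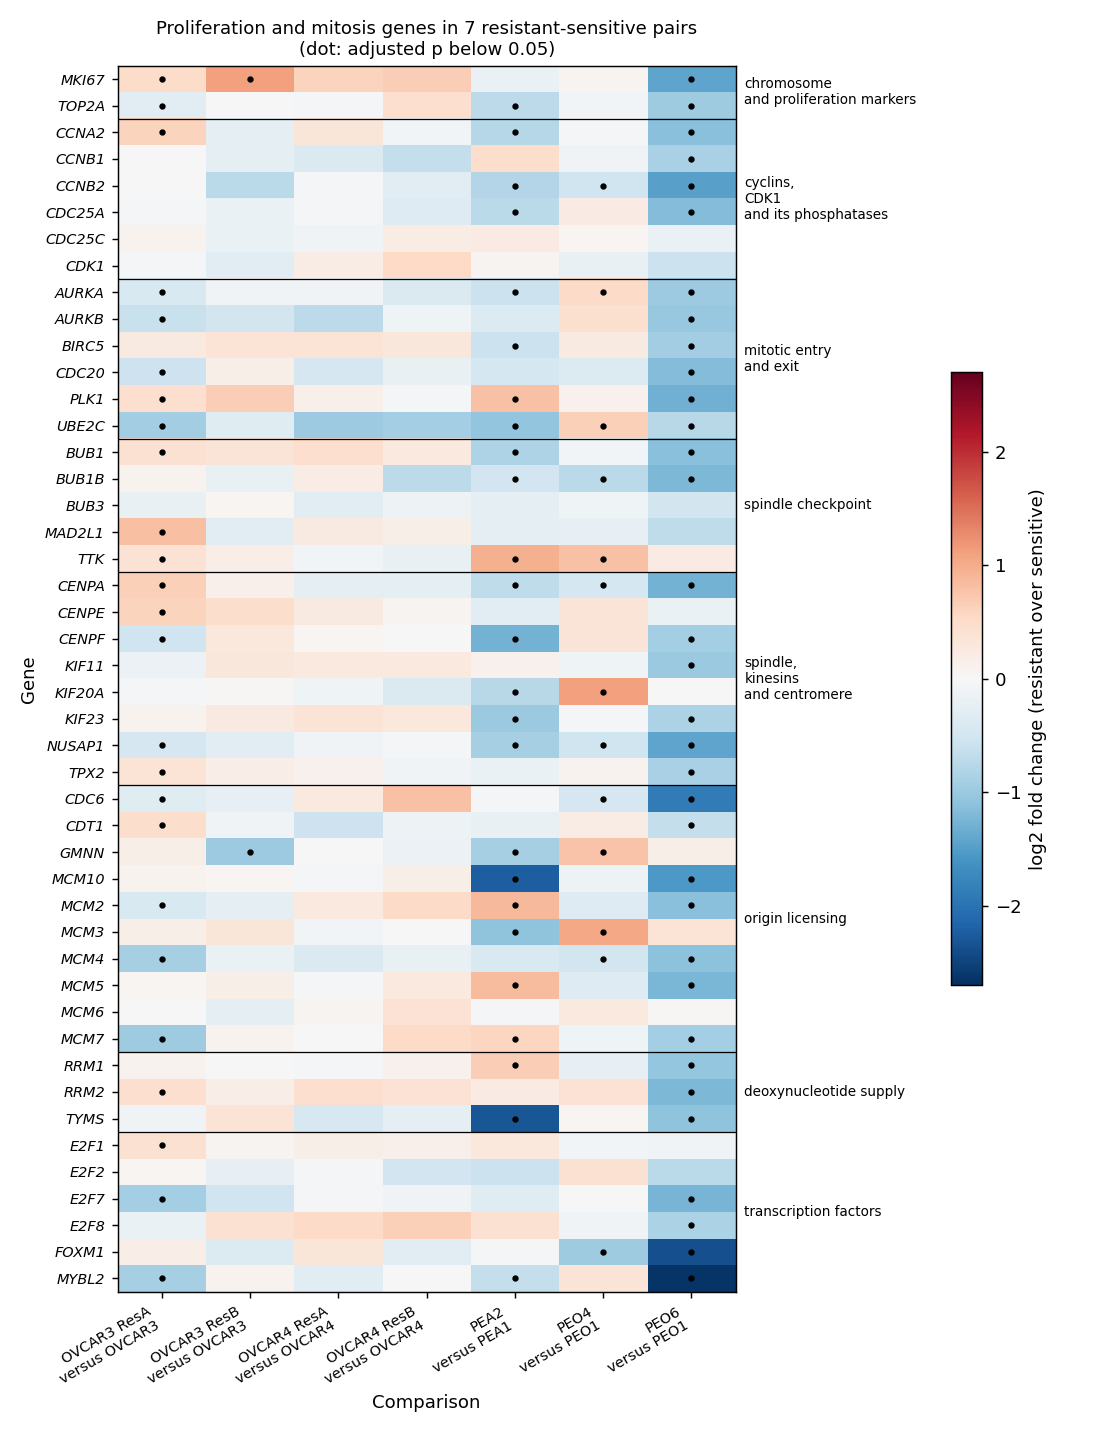
Colour gives the log2 fold change of each of the 46 genes (rows, by role) in each of 7 pairs (columns), resistant over sensitive, and a dot marks an adjusted p below 0.05. The PEO6 column holds 34 dots, all on lower values, and both OVCAR4 columns hold none.

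PEO6 had the broadest change. Of the 46 genes, 34 fell and 0 rose against PEO1, while 20.3% of all genes tested were called lower and 21.2% higher. The median log2 fold change of the 46 was -0.997, against 0.0226 over all genes. Every role group had called decreases. They covered 2 of 2 markers, 4 of 6 cyclins and CDK1 genes, 6 of 6 genes of mitotic entry and exit, 2 of 5 checkpoint genes, 6 of 8 spindle and centromere genes, 7 of 10 licensing genes, 3 of 3 deoxynucleotide genes and 4 of 6 transcription factors.

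The largest decreases were those of the transcription factors MYBL2 and FOXM1. On GRCh38 MYBL2 spans chr20:43667114-43716482 and FOXM1 chr12:2857680-2877174. MYBL2 had 10.9, 11.2 and 43.5 TPM in the PEO6 libraries and 119, 70.7 and 152 in PEO1, so the groups did not overlap. Its log2 fold change was -2.65 ± 0.27 (SE), with a DESeq2 adjusted p of 7.25e-21. FOXM1, the forkhead factor of the late cell cycle, had 22.9, 19.1 and 73.2 TPM in PEO6 and 171, 104 and 239 in PEO1, again without overlap. It fell by 2.37 ± 0.24 on the log2 scale (adjusted p 1.22e-20). PEO6 replicate 3 was the highest of the 3 for both factors.

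Replication genes followed. CDC6, which loads the MCM helicase at origins, had 15.1, 11.2 and 32.3 TPM in PEO6 against 67.6, 47.1 and 84.1 in PEO1. Its log2 fold change was -1.89 ± 0.24 (adjusted p 6.23e-14). MCM10, MCM5, MCM2, MCM4, MCM7 and CDT1 also fell, while MCM3 (log2 fold change 0.37, adjusted p 0.163) and GMNN (0.16, adjusted p 0.670) did not pass. GMNN codes for geminin, the inhibitor of CDT1, and MCM3 for a subunit of the same hexamer as MCM2, MCM4, MCM5 and MCM7. TYMS, thymidylate synthase, had 69.4, 49.9 and 92.0 TPM in PEO6 and 138, 122 and 172 in PEO1 (log2 fold change -1.08 ± 0.23, adjusted p 2.36e-05). Its 3 PEO6 values were all below those of PEO1.

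Among mitotic genes, CCNB2 (cyclin B2) had 107, 50.0 and 114 TPM in PEO6 against 230, 206 and 266 in PEO1 (log2 fold change -1.47 ± 0.27, adjusted p 5.12e-07). NUSAP1, a microtubule-bundling protein of the spindle, had 107, 52.7 and 129 TPM against 236, 191 and 295 (-1.42 ± 0.25, adjusted p 2.31e-07). Both genes had PEO6 libraries entirely below PEO1. MKI67 was called lower (-1.43 ± 0.26, adjusted p 4.31e-07), but its libraries overlapped, at 8.39, 7.28 and 30.3 TPM in PEO6 and 35.0, 18.3 and 50.9 in PEO1. TOP2A, the topoisomerase that untangles sister DNA, had 145, 66.6 and 150 TPM against 232, 179 and 244 (-0.96 ± 0.26, adjusted p 8.37e-04), with no overlap. CCNB1 had 177, 85.5 and 188 TPM in PEO6 and 245, 221 and 315 in PEO1 (-0.88 ± 0.26, adjusted p 0.00333). CDK1, the kinase it activates, had 207, 112 and 199 TPM against 238, 278 and 214 and did not pass (-0.57 ± 0.29, adjusted p 0.102). The kinase TTK (0.22, adjusted p 0.556) and the kinesin KIF20A (-0.02, adjusted p 0.964) did not pass either.

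In TPM, 20 of the 46 genes had all PEO6 libraries below all PEO1 libraries and 0 had them above, beside 19.9% and 27.1% of all genes tested. The mitochondrial rRNA share was 3.59%, 3.32% and 2.65% in PEO6 and 1.80%, 2.34% and 2.75% in PEO1, so it moved with the pair. With the share as a covariate in place of the replicate block, 10 genes were called, all lower. They were MYBL2, FOXM1, CDC6, MCM10, CCNB2, E2F7, NUSAP1, BUB1B, TYMS and BUB3. The median log2 fold change of the 46 genes was then -0.712, against 0.00244 over all genes. Without replicate 2, whose PEO6 library had the lowest sum, 19 were called, all lower.

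**Figure D5:**
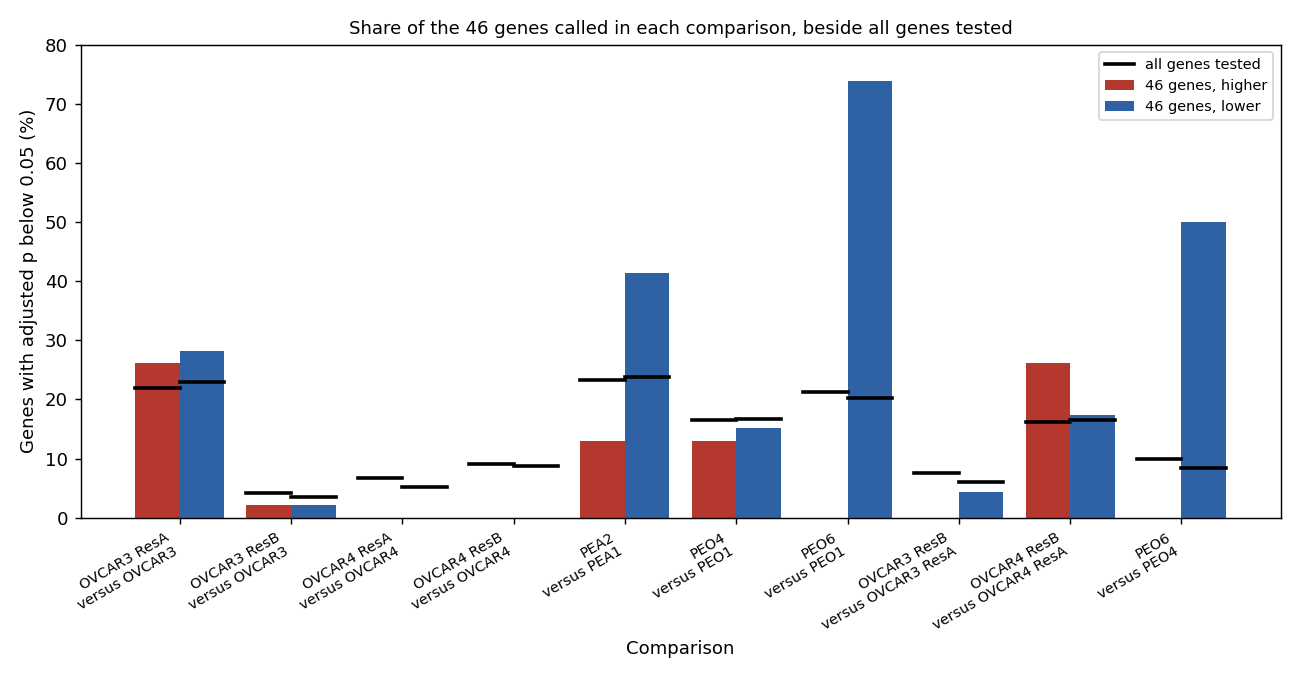
Bars give the percentage (y axis) of the 46 genes called higher (red) and lower (blue) in each of 10 comparisons (x axis), and black lines the percentage of all genes tested in the same direction. The lower bars of PEO6 (73.9% against PEO1 and 50.0% against PEO4) and PEA2 (41.3%) stand above their black lines, and both OVCAR4 pairs have no bar.

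The promoters of the 46 genes were searched for the elements of late and early cell cycle genes. In the RefSeq promoter table (GRCh38.p14, 250 bases before to 50 after the annotated start), 36 of the 46 genes had 45 windows. A CHR element, TTTGAA or TTTAAA on either strand, stood in 46.7% of these windows and in 24.0% of all 35116 windows. A CCAAT box, CCAAT on either strand, stood in 77.8% against 34.6%. An E2F element (TTTCCCGC, TTTGGCGC, TTTCGCGC or TTTGCCGC on either strand) stood in 33.3% against 3.31%. By role, CHR elements were in 7 of 7 windows of spindle and centromere genes and in 0 of 11 of the licensing genes, and E2F elements in 2 of the 7 and in 7 of the 11. CCAAT boxes were in 6 of the 7 and in 8 of the 11, and CHR elements in 2 of 4 windows of the deoxynucleotide genes. These letter matches are descriptions and not measured binding sites.

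The 4 promoters printed here are those of a spindle gene, a cyclin, a proliferation marker and a licensing gene. Capitals mark the matched letters, and a position is that of the left-most matched base with the annotated start at 0. NUSAP1 (chr15:41332631-41332930, plus strand) and CCNB2 (chr15:59104896-59105195, plus strand) fell in the same 3 pairs of the PEA and PEO families. NUSAP1 has CHR matches at -40 and 13, CCAAT matches at -249, -105 and -64 and an E2F match at -174. CCNB2 has CHR matches at -193 and -29 and CCAAT matches at -244, -120, -87 and -54. MKI67 (chr10:128126374-128126673, minus strand) has CHR matches at -47 and -29, the second sharing bases with a CCAAT match at -24. The first of 3 MCM7 windows (chr7:100101348-100101647, minus strand) has no CHR match but E2F matches at -187 and -9, the latter sharing bases with a CCAAT match at -2.
NUSAP1: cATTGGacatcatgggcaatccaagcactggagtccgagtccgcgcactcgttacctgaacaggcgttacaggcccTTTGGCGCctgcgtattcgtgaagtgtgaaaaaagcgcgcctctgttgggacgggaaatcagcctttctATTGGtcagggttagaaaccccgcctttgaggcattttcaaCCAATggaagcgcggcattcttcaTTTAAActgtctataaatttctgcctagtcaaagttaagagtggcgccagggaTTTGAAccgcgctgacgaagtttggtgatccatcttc
CCNB2: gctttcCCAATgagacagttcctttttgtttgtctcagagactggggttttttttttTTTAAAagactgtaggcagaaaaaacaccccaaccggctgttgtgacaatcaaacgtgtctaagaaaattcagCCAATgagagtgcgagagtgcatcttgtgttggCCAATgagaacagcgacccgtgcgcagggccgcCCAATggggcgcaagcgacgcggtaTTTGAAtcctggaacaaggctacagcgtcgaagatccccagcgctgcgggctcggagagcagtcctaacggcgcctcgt
MKI67: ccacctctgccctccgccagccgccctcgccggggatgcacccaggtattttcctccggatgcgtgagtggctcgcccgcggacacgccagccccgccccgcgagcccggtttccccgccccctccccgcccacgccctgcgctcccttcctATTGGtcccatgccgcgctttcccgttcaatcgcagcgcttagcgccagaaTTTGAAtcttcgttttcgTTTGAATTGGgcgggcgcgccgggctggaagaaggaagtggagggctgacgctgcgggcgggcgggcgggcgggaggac
MCM7: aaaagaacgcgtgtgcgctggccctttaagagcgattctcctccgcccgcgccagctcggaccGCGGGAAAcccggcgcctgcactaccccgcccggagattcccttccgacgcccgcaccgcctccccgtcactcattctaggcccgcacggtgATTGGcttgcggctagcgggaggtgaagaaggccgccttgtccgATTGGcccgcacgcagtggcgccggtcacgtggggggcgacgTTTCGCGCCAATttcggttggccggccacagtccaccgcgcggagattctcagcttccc

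PEO4, set against the same PEO1 libraries, had 6 genes higher and 7 lower, while 16.6% of all genes tested were called higher and 16.7% lower. At 13.0% and 15.2% of the 46, both shares lay below that background. On log2(TPM + 1) with limma the split was 5 higher and 4 lower. The largest increase was that of KIF20A, a kinesin of cytokinesis, with 84.8, 90.0 and 93.4 TPM in PEO4 and 39.3, 31.0 and 62.6 in PEO1. Its log2 fold change was 1.10 ± 0.18 (adjusted p 6.30e-09), and the groups did not overlap. MCM3 (140, 133 and 112 TPM against 69.5, 48.5 and 75.1) rose by 1.05 ± 0.17 on the log2 scale (adjusted p 1.26e-08). GMNN had 96.7, 104 and 113 TPM against 60.3, 61.2 and 69.1 and rose by 0.77 ± 0.18 (adjusted p 1.02e-04). TTK, the MPS1 kinase of the checkpoint, had 89.3, 90.7 and 90.6 TPM against 60.6, 48.3 and 51.3 (0.80 ± 0.18, adjusted p 3.81e-05). All 4 genes were higher in each PEO4 library than in any PEO1 library.

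The largest decrease in PEO4 was that of FOXM1, at 97.1, 87.2 and 63.6 TPM against 171, 104 and 239 (log2 fold change -0.96 ± 0.22, adjusted p 8.48e-05). NUSAP1 (155, 155 and 168 TPM against 236, 191 and 295) and CCNB2 (157, 167 and 145 against 230, 206 and 266) both fell by 0.54 ± 0.16 (adjusted p 0.00296 and 0.00322). These 3 genes lay below PEO1 in every library. MKI67 (0.07), TOP2A (-0.06), CDK1 (-0.21) and CCNB1 (-0.10) had log2 fold changes with adjusted p from 0.475 to 0.884. MKI67 had 41.0, 38.1 and 23.9 TPM in PEO4, a range inside that of PEO1. Replicate 3 had the highest mitochondrial rRNA share of the PEO4 libraries, 5.59%, and without that library 24 genes were called, 16 higher and 8 lower. Leaving out replicate 1 left 6 called.

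PEO6 compared with PEO4 had 23 of the 46 genes lower and 0 higher, beside 8.33% lower and 9.86% higher over all genes tested. Again MYBL2 changed most, with 159, 146 and 106 TPM in PEO4, all above PEO6 (log2 fold change -3.02 ± 0.40, adjusted p 1.64e-12). RRM2, the regulated subunit of ribonucleotide reductase, followed at -1.61 ± 0.34 (adjusted p 3.98e-05). KIF20A, which rose in PEO4, was lower in PEO6 than in PEO4 by 1.12 ± 0.32 (a log2 fold change of -1.12, adjusted p 0.00509). This count rests on replicate 2, since 1 gene, MYBL2, was called without it, and 14 and 35 without replicates 1 and 3. edgeR called 10 of the 46.

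PEA2 had 19 genes lower and 6 higher than PEA1, beside 23.8% and 23.3% of all genes tested. The median log2 fold change of the 46 genes was -0.35 against -0.0218 over all genes, and on log2(TPM + 1) with limma 15 were lower and 1 higher. Markers of other cell types moved with this pair. From PEA1 to PEA2 EPCAM went from 14 to 575 TPM, KRT7 from 2.95 to 1186, CDH1 from 1.26 to 204 and the endothelial cadherin CDH5 from 0 to 7.02, while the collagen gene COL1A1 went from 88.4 to 0.879 and PDGFRB from 6.55 to 0.0129. The fibroblast markers DCN and COL3A1 were at 0 in both lines, and the part of these markers in the result was not tested. TYMS (chr18:657653-673578) changed most, with 116, 92.4 and 78.4 TPM in PEA2 and 585, 376 and 609 in PEA1. Every PEA2 library lay below every PEA1 library. Its log2 fold change was -2.32 ± 0.22 (adjusted p 2.09e-24). MCM10, a replication initiation factor, fell by 2.23 ± 0.28 (adjusted p 1.23e-14). CENPF, a kinetochore protein, fell by 1.27 ± 0.24 (adjusted p 9.88e-07).

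Several late cell cycle genes fell with them. UBE2C had 212, 194 and 144 TPM in PEA2 against 372, 563 and 332 in PEA1 (log2 fold change -1.06 ± 0.26, adjusted p 1.54e-04). NUSAP1 had 105, 85.2 and 65.6 TPM against 174, 143 and 198 (-0.90 ± 0.23, adjusted p 3.05e-04), and CCNB2 had 103, 80.6 and 77.8 against 190, 124 and 181 (-0.79 ± 0.21, adjusted p 8.88e-04). KIF20A, which rose in PEO4, had 64.5, 53.3 and 39.5 TPM against 92.6, 88.7 and 101 and fell (-0.75 ± 0.23, adjusted p 0.00361). TOP2A had 185, 156 and 125 TPM against 256, 279 and 289 (-0.72 ± 0.23, adjusted p 0.00485). For all 5 genes the PEA2 libraries lay below the PEA1 libraries. GMNN, at 99.4, 78.7 and 79.3 TPM against 180, 187 and 158, fell as well (-0.90 ± 0.24, adjusted p 6.37e-04). MKI67 (76.7, 59.3 and 33.3 TPM against 73.8, 35.6 and 117) did not pass (-0.18 ± 0.35, adjusted p 0.705). CDK1 had 240, 240 and 211 TPM against 218, 269 and 237 (0.08, adjusted p 0.794), and CCNB1 had 228, 178 and 150 against 165, 112 and 157 (0.48 ± 0.22, adjusted p 0.0541).

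The subunits of the MCM hexamer moved in opposite directions in PEA2. MCM2, MCM5 and MCM7 were called higher, with log2 fold changes of 0.88 ± 0.28, 0.85 ± 0.25 and 0.58 ± 0.25 (adjusted p 0.00472, 0.00232 and 0.0456). MCM3 had 56.8, 47.6 and 38.1 TPM in PEA2 against 117, 86.2 and 127 and was called lower (-1.08 ± 0.22, adjusted p 7.34e-06). MCM4 and MCM6 did not pass. The largest increase was that of TTK, with 149, 137 and 106 TPM against 72.3, 63.9 and 81.2 (0.97 ± 0.22, adjusted p 4.68e-05). TTK stood above PEA1 in every PEA2 library, whereas the libraries of MCM7 (157, 134 and 112 TPM against 117, 59.3 and 135) overlapped. MCM7 and PLK1 were both lower in libraries of high mitochondrial rRNA share. Neither was called in PEA2 with that share in place of the replicate block (0.14 and 0.11) or without PEA1 replicate 2, whose share was 7.62%. These calls were lost in most settings, with or without the share. MCM7 lost its call in 10 of 12 alternative settings and PLK1 in 9 of 12, among them the fit with no replicate block. Without replicate 1, which moves the count most, 10 genes were called, all lower.

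OVCAR3 ResA had 12 genes higher and 13 lower than OVCAR3, beside 22.0% and 22.9% of all genes tested. At 26.1% and 28.3% of the 46, both shares lay near that background. The median log2 fold change of the 46 genes was 0.03 against -0.0151 over all genes. On log2(TPM + 1) with limma the split was 14 higher and 7 lower. Checkpoint genes changed upward in 3 of 5 (MAD2L1, BUB1 and TTK), and genes of mitotic entry and exit downward in 4 of 6 (UBE2C, AURKB, CDC20 and AURKA). These role groups are small, and a difference between them was not tested. The mitochondrial rRNA share was lower in OVCAR3 ResA than in OVCAR3 for each replicate number (1.86%, 3.79% and 5.57% against 2.39%, 4.93% and 7.52%). Of the genes called higher, MAD2L1, BUB1, PLK1, MKI67, CCNA2, TPX2, RRM2, TTK, CENPA and E2F1 had negative medians between replicates over the 8 lines. They changed in the direction that a lower share went with, as did UBE2C, AURKB, TOP2A and CENPF, which had positive medians and were called lower. CENPE and CDT1, called higher with positive medians, changed in the opposite direction. So did MCM7, MCM2, MCM4, MYBL2, AURKA, CDC20, E2F7, NUSAP1 and CDC6, which had negative medians and were called lower. With the share as a covariate in place of the replicate block, 18 of the 46 genes were called, 7 higher and 11 lower. MAD2L1, UBE2C, CDC20 and AURKA were among them, and BUB1, TTK and AURKB were not. MAD2L1, which holds the anaphase-promoting complex in check, had 328, 199 and 129 TPM in OVCAR3 ResA and 170, 88.6 and 78.2 in OVCAR3. Within each replicate number the resistant library was the higher, although the groups overlapped (log2 fold change 0.80 ± 0.11, adjusted p 6.94e-12). MCM7 had 54.2, 42.7 and 28.0 TPM against 103, 62.2 and 56.3, with no overlap (-0.96 ± 0.12, adjusted p 1.43e-15). UBE2C had 125, 248 and 220 TPM against 233, 406 and 392 (-0.95 ± 0.10, adjusted p 4.51e-19), and was lower within each replicate number. MYBL2 had 65.4, 58.4 and 38.5 TPM against 118, 74.6 and 81.9 and did not overlap (-0.90 ± 0.13, adjusted p 3.92e-11).

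Smaller changes in OVCAR3 ResA were those of MKI67, with 50.0, 49.0 and 38.5 TPM against 39.1, 25.7 and 28.6 (0.50 ± 0.11, adjusted p 4.28e-05), and TOP2A, with 90.2, 98.9 and 104 against 96.9, 111 and 118 (-0.29 ± 0.10, adjusted p 0.00813). Thus the 2 proliferation markers were called in opposite directions, and both sets of libraries overlapped. The TOP2A call was lost in 9 of 12 alternative settings and the MKI67 call in 1. CDK1 had 265, 197 and 151 TPM in OVCAR3 ResA and 216, 194 and 164 in OVCAR3, and CCNB1 had 160, 183 and 146 against 175, 156 and 118. Neither passed (adjusted p 0.746 and 0.961). The replicates of this pair deviated together, and 9 genes were called with no replicate block and 4 (MCM7, E2F7, MCM4 and E2F1) when all 33 libraries were fitted at once.

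OVCAR3 ResB had 1 gene higher and 1 lower than OVCAR3, beside 4.10% and 3.57% of all genes tested. MKI67 had 55.1, 48.9 and 119 TPM in OVCAR3 ResB, all above the highest OVCAR3 library (log2 fold change 1.11 ± 0.35, adjusted p 0.0238). GMNN had 56.1, 30.1 and 51.5 TPM against 98.7, 94.3 and 59.4 in OVCAR3 and lay wholly below (-0.98 ± 0.34, adjusted p 0.0496). TOP2A had 93.3, 147 and 113 TPM, CDK1 148, 148 and 195, and CCNB1 96.2, 119 and 207, and none of these passed. Replicate 3, the library with 1.12% mitochondrial rRNA, was the highest of the 3 for MKI67, CDK1 and CCNB1. Without it 7 genes were called, 2 higher and 5 lower, and edgeR called 0 of the 46 with all libraries. Set against OVCAR3 ResA, OVCAR3 ResB had 0 genes higher and 2 lower, GMNN (-1.14 ± 0.34, adjusted p 0.00836) and MAD2L1 (-1.11 ± 0.38, adjusted p 0.0304), beside 7.47% and 6.04% of all genes tested.

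In the OVCAR4 family 0 of the 46 genes were called by DESeq2 in OVCAR4 ResA and 0 in OVCAR4 ResB, against OVCAR4. Over all genes tested, 6.68% were called higher and 5.22% lower in OVCAR4 ResA, and 9.09% and 8.77% in OVCAR4 ResB. At an unadjusted p below 0.05 there were 2 and 5 genes, and edgeR called 0 in both. MKI67 had 43.9, 81.9 and 126 TPM in OVCAR4 ResA and 54.9, 97.5 and 104 in OVCAR4 ResB, against 49.9, 35.2 and 32.4 in OVCAR4. Its log2 fold changes were 0.60 ± 0.39 and 0.67 ± 0.34 (adjusted p 0.356 and 0.163). TOP2A had 257, 175 and 203 TPM in OVCAR4 ResA, 388, 262 and 271 in OVCAR4 ResB and 155, 144 and 152 in OVCAR4, with no overlap in either pair. After size factor normalisation its log2 fold changes were -0.05 and 0.44 (adjusted p 0.952 and 0.477). On the TPM scale the median of all genes was itself shifted by 0.44 and 0.48 on the log2 scale in the 2 pairs, so TPM values of this family run higher in the resistant lines for most genes.

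CDK1 had 284, 347 and 320 TPM in OVCAR4 ResA, 357, 440 and 427 in OVCAR4 ResB and 298, 141 and 167 in OVCAR4 (log2 fold changes 0.21 and 0.53, adjusted p 0.745 and 0.250). CCNB1 had 126, 167 and 191 TPM, 96.8, 154 and 179, and 205, 101 and 148 in the same order of lines (-0.40 and -0.64, adjusted p 0.461 and 0.164). In both resistant lines replicate 1 was the lowest for CCNB1 and in OVCAR4 it was the highest. The OVCAR4 counts of 0 rest on replicate 1. Without it 20 genes were called in OVCAR4 ResA, 18 higher and 2 lower, and 24 in OVCAR4 ResB, 20 higher and 4 lower. With all libraries and the mitochondrial rRNA share as a covariate in place of the replicate block, 13 were called in OVCAR4 ResA, all lower. In OVCAR4 ResB 18 were called, 3 higher and 15 lower. Called genes were thus mostly higher without replicate 1 and mostly lower with the covariate.

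The resistant lines of this family, whose replicates deviated together, differed from each other in 20 of the 46 genes, 12 higher and 8 lower in OVCAR4 ResB, beside 16.2% and 16.5% of all genes tested. Of the licensing genes 7 of 10 were higher and 0 lower, among them CDC6 with 53.6, 94.5 and 112 TPM in OVCAR4 ResB and 37.0, 61.5 and 75.0 in OVCAR4 ResA. Each OVCAR4 ResB library was above the same-numbered OVCAR4 ResA library (log2 fold change 0.54 ± 0.09, adjusted p 2.70e-08). MCM7 had 98.6, 287 and 344 TPM against 76.8, 189 and 205 (0.54 ± 0.09, adjusted p 1.24e-07). BUB1B, the BUBR1 checkpoint kinase, was lower (-0.90 ± 0.11, adjusted p 2.83e-14), as was FOXM1 with 20.8, 52.8 and 65.9 TPM against 36.4, 76.6 and 92.8 (-0.65 ± 0.10, adjusted p 3.76e-10). With no replicate block 2 genes were called, and 1 when all 33 libraries were fitted at once. On log2(TPM + 1) with limma the split was 11 higher and 4 lower.

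Over the 7 pairs, 17 genes had calls in both directions, 20 had calls only downward and 4 only upward, beside 38.4%, 22.7% and 25.5% of the genes tested in all 7. The 5 genes called in none were CDK1, CDC25C, BUB3, MCM6 and E2F2. NUSAP1 was lower in 4 pairs (OVCAR3 ResA, PEA2, PEO4 and PEO6), with its OVCAR3 ResA libraries at 89.4, 111 and 90.9 TPM against 148, 115 and 101 in OVCAR3 (log2 fold change -0.45 ± 0.13, adjusted p 0.00134). Those OVCAR3 ResA and OVCAR3 libraries overlapped, and this call was lost in 6 of 12 alternative settings. The NUSAP1 calls in PEA2, PEO4 and PEO6 were lost in 0, 2 and 0. In all, 12 genes were called in the same direction in at least 3 pairs, beside 19.9% of the genes tested in all 7. The other genes called in the same direction in 3 pairs were TTK, the only one of them that was higher, and TOP2A, CCNB2, AURKA, UBE2C, BUB1B, CENPA, CENPF, CDC6, MCM4 and MYBL2, of which AURKA, UBE2C and CENPA were called in the opposite direction in another pair. UBE2C was lower in OVCAR3 ResA, PEA2 and PEO6, and higher in PEO4 with 333, 360 and 468 TPM against 217, 216 and 340 in PEO1 (0.64 ± 0.16, adjusted p 4.78e-04). Those PEO4 and PEO1 libraries overlapped, and UBE2C was the gene most strongly higher in libraries with a high mitochondrial rRNA share. The UBE2C call in PEO4 was lost in 3 of 12 alternative settings, among them the share as a covariate and all 33 libraries in 1 fit. Its PEO6 call was lost in 5 of 12, and those in OVCAR3 ResA and PEA2 in 1 each. CDC6 was lower in OVCAR3 ResA (-0.33, adjusted p 0.0143), PEO4 (-0.46, adjusted p 0.0466) and PEO6. Its calls in OVCAR3 ResA and PEO4 were lost in 10 and 9 of 12 alternative settings, and its PEO6 call in 0. The MYBL2 call in PEA2 was lost in 7 of 12, and those in OVCAR3 ResA and PEO6 in 1 and 0. For TTK the losses were 5, 1 and 0 in OVCAR3 ResA, PEA2 and PEO4.

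MKI67, MCM3 and PLK1 had the widest range of change among the genes called in both directions. PLK1 was called higher in OVCAR3 ResA, with 32.8, 23.3 and 13.7 TPM against 29.1, 10.9 and 9.52 (log2 fold change 0.45 ± 0.17, adjusted p 0.0210), and in PEA2, with 136, 101 and 73.5 against 84.9, 30.6 and 97.8 (0.79 ± 0.30, adjusted p 0.0220). It was called lower in PEO6, with 21.3, 16.5 and 65.7 TPM against 74.9, 46.2 and 93.8 (-1.29 ± 0.26, adjusted p 8.18e-06). All 3 of these PLK1 comparisons had overlapping libraries, and PLK1 was the gene most strongly lower in libraries with a high mitochondrial rRNA share.

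With the line as the unit, on counts summed over replicates and with the family as a covariate, DESeq2 called 0 of the 46 genes between the 7 resistant and the 4 sensitive lines, beside 0.286% of all genes tested. At an unadjusted p below 0.05 there were 3, and edgeR called 0. The median log2 fold change of the 46 genes was -0.19 against 0.00653 over all genes. Leaving out any 1 family left the count at 0.

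The change of each family, the mean of its resistant lines minus its sensitive line, was compared between families in 1 fit of all 33 libraries. Between the OVCAR3 and OVCAR4 families 0 of the 46 genes differed (3 at an unadjusted p below 0.05, and 0 by edgeR), beside 22.6% of all genes tested. The OVCAR3 and PEA changes differed in 7 genes (37.0% of all genes tested) and the OVCAR3 and PEO changes in 8 (32.1%). The OVCAR4 changes differed from those of PEA in 12 (41.4%) and of PEO in 14 (34.9%). Between PEA and PEO 11 genes differed (43.7%). Each of these 6 shares lies below its background, at 0 to 14 of 46.

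The genes behind them recurred. TYMS had a change in PEA below that of the OVCAR3, OVCAR4 and PEO families, with log2 differences of 2.40 ± 0.40 against OVCAR3 (adjusted p 2.14e-08) and, as PEA minus PEO, -1.82 ± 0.40 (adjusted p 2.90e-05). MCM10 and MCM3 were likewise lower in PEA than in each of the other 3 families. FOXM1 and CDC6 had a change in PEO below that of each of the others, by 1.50 ± 0.45, 1.64 ± 0.45 and 1.59 ± 0.49 for FOXM1 against OVCAR3, OVCAR4 and PEA. MCM5 was also lower in PEO than in each of the others. The PEO change is the mean of PEO4 and PEO6, and against PEO1 MCM5 was called in PEO6 but not in PEO4. TTK and CCNB1 differed between OVCAR4 and PEA, with the lower change in OVCAR4.

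Other genes of the cell cycle were counted from lists that hold none of the 46. In PEO6, 18 of 30 other replication genes and 23 of 39 other mitosis genes were called lower, with 0 and 1 higher, beside the 20.3% and 21.2% of all genes given above. NCAPD2, a condensin subunit, fell most (log2 fold change -1.65 ± 0.25, adjusted p 7.87e-10). In PEA2, 8 replication and 17 mitosis genes were lower (26.7% and 43.6%, background 23.8%) and 7 and 5 higher, from CDCA2 (-1.70 ± 0.25) to SPC24 (1.78 ± 0.36), a kinetochore subunit. In PEO4 the counts were 5 and 7 lower and 2 and 2 higher, at or below the background apart from 17.9% of the mitosis genes lower against 16.7%, and PCNA, the sliding clamp of replication, was the lowest replication gene (-0.98 ± 0.17). OVCAR3 ResA had 13 and 8 lower (43.3% and 20.5%, background 22.9%) and 5 and 10 higher, among them SMC4 (-1.22 ± 0.09), another condensin subunit, and PRC1 (1.03 ± 0.12), which bundles microtubules at the midzone. OVCAR3 ResB had 0 in all 4 counts. The OVCAR4 lines had POLA1, a subunit of DNA polymerase alpha, as the 1 gene higher in each (1.22 ± 0.39 and 1.42 ± 0.38). POLE2 was lower in OVCAR4 ResA, and 3 mitosis genes (TROAP, CDCA3 and PTTG1) were lower in OVCAR4 ResB.

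A list of 23 genes held CDK inhibitors, pocket proteins, E2F4 and E2F5 with their partners, the MuvB core, G cyclins and BTG genes, so it mixed repressors with subunits that also serve activation. It had 11 genes higher and 6 lower in PEA2 (47.8% and 26.1%, background 23.3% and 23.8%) and 8 and 8 in OVCAR3 ResA (34.8% each, background 22.0% and 22.9%). In PEO4 and PEO6 it had 4 higher and 6 lower (17.4% and 26.1%), against 16.6% and 16.7% and against 21.2% and 20.3%. CDKN1A, the p21 inhibitor, was at 23.4 ± 6.05 TPM (SD, n = 3) in OVCAR3 ResA and 2.60 ± 1.27 in OVCAR3 (log2 fold change 3.09 ± 0.19, adjusted p 1.82e-55). It also rose in PEA2 and in PEO4, where it was at 6.05 ± 2.10 TPM against 1.90 ± 0.0879 (1.66 ± 0.31, adjusted p 9.08e-07), and fell in OVCAR4 ResA, from 51.4 ± 12.7 to 26.9 ± 3.53 TPM (-1.43 ± 0.32, adjusted p 3.13e-04). CDKN1C, the p57 inhibitor, fell in PEA2, where it was at 0.472 ± 0.301 TPM against 6.45 ± 1.65 (-3.84 ± 0.53, adjusted p 4.59e-12), and in both OVCAR3 lines. LIN54, the DNA-binding subunit of MuvB that recognises CHR elements, fell in PEO4 (-1.01 ± 0.19, adjusted p 1.14e-06), PEO6 (-1.71 ± 0.25, adjusted p 1.76e-10) and PEA2 (-0.73 ± 0.26) and rose in OVCAR3 ResA (0.67 ± 0.15). E2F5, a repressive E2F, was at 37.3 ± 2.76 TPM in PEO6 and 8.82 ± 0.989 in PEO1 (2.03 ± 0.25, adjusted p 6.71e-15).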

How the data were processed

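RNA from 11 ovarian carcinoma lines was sequenced by the authors from poly(A)-selected libraries (KAPA mRNA HyperPrep), read with nf-core/rnaseq against GRCh38 and summarised per gene with salmon. The submitters' processing notes name DRAGEN. The authors deposited 2 tables of 29744 genes. One holds expected counts as salmon estimated them, not normalised by the authors, of which 88.4% were whole. The other holds TPM, which the authors scaled by effective length to a fixed sum per library, so that it carries no depth. Columns were matched to samples by the sample titles.

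Expected counts were rounded and fitted over the whole table with DESeq2 1.42.0 in R 4.3.3 (Wald test, 6 libraries per comparison, line plus replicate number), as in the study's methods. No count filter was applied before the fit. Genes tested are those that kept a Benjamini-Hochberg adjusted p after the default DESeq2 filter by mean count, 14993 to 18160 in the pairwise comparisons. The threshold was an adjusted p below 0.05. Line-level tests used counts summed per line with family as covariate. Family differences came from 1 fit of 33 libraries. Alternatives were edgeR 4.0.16 (quasi-likelihood), no replicate block, a filter of 10 counts in 3 libraries, all 33 libraries in 1 fit, limma 3.58.1 on log2(TPM + 1) or log2(TPM + 0.1) with a mean of at least 1 TPM or no filter, the mitochondrial rRNA share as a covariate, and leaving out each replicate. The fits with the mitochondrial rRNA share as a covariate held no replicate block, so they differ from the main fit in both respects. One more alternative, chosen after seeing the data, left out the library of a pair with the share farthest from the pair's median. The scripts were tested on simulated counts. The 46 genes, the role groups and the other lists were chosen with earlier results of these data known.

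Library values were named by rule for MKI67, TOP2A, CDK1 and CCNB1, the largest called increase and decrease of each pair, 5 genes with calls of 1 sign in the most pairs (ties by summed absolute log2 fold change) and the 3 called in both directions with the widest range. The 3 genes most like MKI67 over lines were named by their correlation. Other genes are given by counts and fold changes, and some of these were named after their values were seen. The replicate numbers were taken to pair libraries where all 3 correlations of same-numbered deviations from line means were above 0.1. This held for OVCAR3 ResA against OVCAR3 (0.675, 0.246 and 0.463) and OVCAR4 ResB against OVCAR4 ResA (0.718, 0.528 and 0.570). Within-line library contrasts used median-of-ratios normalised counts with a pseudocount of 1, and the ratio of 2 that picked out 8 lines was chosen after seeing the data. Positions are from RefSeq GRCh38.p14, which matched all 46 symbols. Strand use in counting is not given in the sources used here. The labels give no preparation or run batch. The study's text describes a single batch for its cell line panel and library pools sequenced over several runs, and neither source ties single libraries to a culture day or run, so none was modelled.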

Additional observations from a re-analysis of the deposited data

Results flagged for a closer look

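The resistant lines of 1 family were compared with each other. PEO6 and PEO4 differed in 23 of the 46 genes, all lower in PEO6, OVCAR4 ResB and OVCAR4 ResA in 20 (12 higher and 8 lower in OVCAR4 ResB), and OVCAR3 ResB and OVCAR3 ResA in 2, GMNN and MAD2L1, both lower in OVCAR3 ResB. Of all genes tested, 8.33% were called lower and 9.86% higher in the first comparison, 16.5% and 16.2% in the second and 6.04% and 7.47% in the third. The 23 became 1 without replicate 2, and the 20 became 2 with no replicate block.

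The change from sensitive to resistant differed between families, by a test of the difference itself, in 7 genes between OVCAR3 and PEA, 8 between OVCAR3 and PEO, 12 between OVCAR4 and PEA, 14 between OVCAR4 and PEO, and 11 between PEA and PEO. These counts lie below the shares of all genes tested that differed in the same contrasts.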

How the results depend on the processing

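All values here are numbers of the 46 genes called, in the order OVCAR3 ResA, OVCAR3 ResB, OVCAR4 ResA, OVCAR4 ResB, PEA2, PEO4 and PEO6, each against its sensitive line, and then OVCAR3 ResB against ResA, OVCAR4 ResB against ResA and PEO6 against PEO4. They were 25, 2, 0, 0, 25, 13, 34, 2, 20 and 23. Values within 1.5 times of these are left out below, and the cause of each shift was not tested. The share of all genes called in each alternative setting is not given, so these counts have no background beside them.

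With no replicate block the counts moved to 9 in OVCAR3 ResA, 1 in OVCAR4 ResA, 4 in OVCAR4 ResB, 6 for OVCAR3 ResB against ResA and 2 for OVCAR4 ResB against ResA. The numbers paired the libraries of the first and last of these comparisons and not those of the others. With all 33 libraries in 1 fit, with the replicate number as a block over all lines, they moved to 4 in OVCAR3 ResA, 1 and 3 in the OVCAR4 pairs, 15 in PEA2, 7 in PEO4, 11 for OVCAR3 ResB against ResA and 1 for OVCAR4 ResB against ResA. edgeR gave 0 in OVCAR3 ResB, 1 for OVCAR3 ResB against ResA, 10 for PEO6 against PEO4 and 9 between the OVCAR4 and PEO family changes. limma on log2(TPM + 1), log2(TPM + 0.1) and log2(TPM + 1) without the TPM filter gave 0, 0 and 0 in OVCAR3 ResB, 16, 15 and 13 in PEA2, 0, 0 and 0 for OVCAR3 ResB against ResA, and 4, 3 and 0 for PEO6 against PEO4, and the last also moved PEO4 to 7 and OVCAR4 ResB against ResA to 11. With the mitochondrial rRNA share as a covariate, the replicate block was dropped. There were then 4 in OVCAR3 ResB, 13 and 18 in the OVCAR4 pairs, 10 in PEO6 and 15 for OVCAR3 ResB against ResA.

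Leaving out libraries gave 17 to 18 in OVCAR3 ResA, 0 to 7 in OVCAR3 ResB, 0 to 20 in OVCAR4 ResA, 0 to 24 in OVCAR4 ResB, 10 to 21 in PEA2, 6 to 24 in PEO4, 19 to 34 in PEO6, 0 to 11 for OVCAR3 ResB against ResA, 6 to 17 for OVCAR4 ResB against ResA and 1 to 35 for PEO6 against PEO4. Between family changes the ranges were 0 to 1 for OVCAR3 and OVCAR4, 5 to 9 for OVCAR3 and PEA, 2 to 8 for OVCAR3 and PEO, 8 to 14 for OVCAR4 and PEA, 4 to 22 for OVCAR4 and PEO, and 8 to 12 for PEA and PEO. Between resistant and sensitive lines the count was 0 throughout. Over all repeats of the named calls of single genes, 422 stayed called in the same direction, 118 lost the call and 0 reversed. Every gene had at least 65 counts in each library, and the 3 libraries a line limit the precision.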
